A study of Mus musculus with 32 samples.

Results

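Interferon-stimulated genes (ISGs) were examined in RNA sequencing of mouse brain arteries. The 44 genes were chosen by name from the read count table, which holds 55357 Ensembl genes, and all of them lie outside the chromosome 17 major histocompatibility complex. The list was drawn up with earlier results of these libraries in view, so that the members were selected from measured changes between the same groups that are compared here. The changes are therefore a description of these mice, and the tests carry no independent weight. The 44 genes were sorted into 7 role groups. These were the Ifit family (Ifit1, Ifit2, Ifit3, and Ifit3b), the oligoadenylate synthetases (Oas1a, Oas2, Oas3, Oasl1, and Oasl2), sensors of RNA and DNA (Ifih1, Ddx58, Dhx58, and Zbp1), and signaling genes and regulators (Irf7, Irf9, Stat2, Usp18, Isg15, Rtp4, Herc6, Xaf1, Lgals3bp, Sp100, Parp14, and Trim30a). The others were direct antiviral effectors (Mx1, Mx2, Rsad2, Cmpk2, Bst2, Ifitm3, Samd9l, and Slfn2), interferon-inducible GTPases (Gbp2, Gbp3, Gbp6, Gbp7, Igtp, Irgm1, and Iigp1), and other induced genes (Ifi27, Ifi35, Ifi44, and Epsti1). Each gene passed the filter on low counts in every comparison and had at least 73 reads in every library.

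The study asked whether too little NOTCH3 signaling, too much, or neither accompanies arterial disease in a mouse model of the small vessel disease CADASIL. Each of the 32 libraries came from the brain arteries of a different mouse, and each of the 4 groups held 8 of them. Animals of the Notch3-/- line, where Notch3 is inactivated, were taken at 3 months with Notch3+/+ littermates. TgNotch3R169C mice and their WT littermates were 12 months old. The TgNotch3R169C line carries an artificial chromosome with mutant rat Notch3 on top of the normal mouse gene, and the transgene sits on the X chromosome. Both lines were backcrossed to C57BL/6. The arteries were kept in cold saline and dissected by hand, and libraries were made from poly(A) RNA with a stranded kit. The labels do not give the sex of the mice, but Xist and Ddx3y, transcripts of the X and Y chromosomes, put replicates 1 to 4 of every group as male and replicates 5 to 8 as female.

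Cells that meet interferon bind it at paired receptors and activate JAK kinases, which switch on transcription factors. Complexes that hold STAT2 and IRF9 bind interferon-stimulated response elements (ISREs), and a further class of promoter element is the gamma-activated site (GAS). The induced genes encode sensors of viral RNA and DNA, enzymes and binding proteins that block viral growth, GTPases that act on intracellular pathogens, and factors that prolong or end the response. Endothelial cells, smooth muscle cells, and brain macrophages can all express them.

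The response element could be read in the promoters of the members themselves. RefSeq promoters on the GRCm38.p6 build, which is not the mm39 build named in the submitters' processing notes, were found for 33 of the 44 genes. The pattern GAAANNGAAA on either strand, which reads TTTCNNTTTC on the other strand, stood in the 250 bases before the start site of 15 of the 33, or 45.45%, against 936 of 27025 genes, or 3.463%. The 15 were Ifit1, Ifit3, Ifit3b, Isg15, Stat2, Oas1a, Oas3, Rsad2, Bst2, Gbp2, Gbp3, Gbp7, Igtp, Irgm1, and Trim30a. For Stat2, and for Lgals3bp, which did not hold the pattern, the start site of the promoter entry did not match the start of a transcript. The GAS pattern TTCNNNGAA stood in 5 of the 33, or 15.15%, against 2197 of the 27025 genes, or 8.13%, and 4 of those 5 (Oas1a, Bst2, Gbp7, and Igtp) also held the first pattern. In Bst2 the matches of both patterns shared bases. A match describes letters and does not show that a factor binds there. Oas2, Mx1, Mx2, Usp18, Ifi27, Dhx58, Rtp4, Zbp1, Gbp6, Iigp1, and Parp14 had no entry in the promoter table. The stretches that hold the pattern are shown for 5 genes of the Ifit, Isg15, and Oas families and for 3 interferon-inducible GTPases, because the Ifit family and the GTPases are set against each other at the end. They read 5′ to 3′ along the gene, and capitals mark the pattern.
Ifit1 (chr19:34640769-34640828, plus strand): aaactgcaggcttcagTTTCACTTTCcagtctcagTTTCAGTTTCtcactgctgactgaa
Ifit3 (chr19:34583359-34583428, plus strand): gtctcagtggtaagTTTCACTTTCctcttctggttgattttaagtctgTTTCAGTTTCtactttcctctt
Ifit3b (chr19:34607755-34607824, plus strand): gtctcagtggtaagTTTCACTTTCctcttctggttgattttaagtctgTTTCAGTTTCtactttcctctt
Isg15 (chr4:156200854-156200913, minus strand): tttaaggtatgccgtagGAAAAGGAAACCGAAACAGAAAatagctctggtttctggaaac
Oas1a (chr5:120907526-120907595, minus strand): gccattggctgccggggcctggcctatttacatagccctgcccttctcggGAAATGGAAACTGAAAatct
Gbp2 (chr3:142620583-142620642, plus strand): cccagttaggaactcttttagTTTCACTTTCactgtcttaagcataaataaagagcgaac
Igtp (chr11:58199496-58199555, plus strand): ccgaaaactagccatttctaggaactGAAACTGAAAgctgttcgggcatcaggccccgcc
Irgm1 (chr11:48871421-48871480, minus strand): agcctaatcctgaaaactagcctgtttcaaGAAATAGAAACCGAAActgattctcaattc
The stretches of Ifit3 and Ifit3b are the same letter for letter, and the transcripts of these neighbors share 1700 bases at 97.8% identity. Reads of Ifit3 and Ifit3b may thus have been split between them, as may those of Oas1a and Oas1g, which share 1861 bases at 97.6% identity. Of the 44 genes, 20 share at least 100 bases at 95% identity or more with another gene. The exons of 8 overlap those of another gene on the same strand, and 6 overlap one on the opposite strand.

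The libraries held 20289487 to 54481934 reads counted to genes. Notch3 was measured at 83.6 ± 12.0 CPM (read counts scaled to the sequencing depth of the library; SD, n = 8) in Notch3+/+ mice, 16.2 ± 1.82 in Notch3-/-, 73.2 ± 8.19 in WT, and 182 ± 34.5 in TgNotch3R169C mice, which fits the labels of every library. The 6 smooth muscle markers summed to 1913 to 3480 CPM in Notch3+/+, 1304 to 2020 in Notch3-/-, 1034 to 1641 in WT, and 857 to 1355 in TgNotch3R169C mice. In Notch3-/- arteries 5 of the 6 were lower and 0 were higher at adjusted p under 0.05, and in the comparison of the control groups all 6 were lower. In bulk tissue fewer cells of a type and less RNA per cell cannot be told apart. Markers of the choroid plexus, an epithelium inside the brain, were abundant in 7 libraries (Notch3-/- replicate 8, WT replicates 2, 4, 5, and 6, and TgNotch3R169C replicates 5 and 8), where Ttr, its most abundant transcript, reached 7895 to 23151 CPM.

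The mean level of the 44 genes over the 32 mice ran from 6.34 CPM for Oasl1 to 245 CPM for Lgals3bp. Per kilobase of exon, the highest was Ifitm3, which blocks viral entry at membranes, at 346 CPM per kb, followed by Ifi27 at 119.9, Lgals3bp at 86.0, and Bst2 at 81.4. Oas3 was the lowest, at 0.994 CPM per kb. Oas3 was also the gene that varied most between mice, by 8.58-fold from the lowest to the highest, and Ifih1 the one that varied least, by 1.56-fold. The transcripts of the interferons themselves were at the limit of detection. All 14 interferon genes looked for were in the table, and 0 of them had enough reads to be tested, with at most 12 reads in any library.

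As one value per mouse, the median over the 44 genes of the level relative to the Notch3+/+ mean was taken. In the 8 Notch3+/+ mice it ran from 0.930 through a median of 0.967 to 1.11. In the Notch3-/- mice it ran from 1.09 through 1.27 to 1.88, in WT mice from 0.915 through 1.21 to 1.67, and in TgNotch3R169C mice from 0.927 through 1.22 to 1.57. The groups overlapped. Of 8 mice each, 6 Notch3-/-, 7 WT, and 6 TgNotch3R169C mice lay above every Notch3+/+ mouse.

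**Figure D1:**
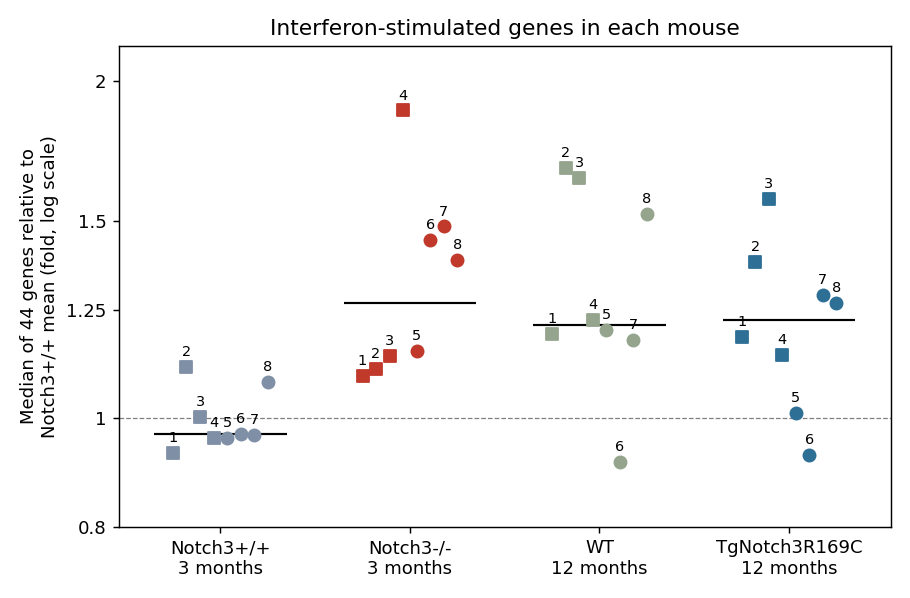
Median of the 44 ISGs in each mouse relative to the Notch3+/+ mean (y axis, fold on a log scale) by group (x axis). Squares are mice read as male and circles mice read as female from Xist and Ddx3y, numbers are replicates, and lines are group medians. The 8 Notch3+/+ mice sit between 0.930 and 1.11, whereas the other groups spread from near 1 up to 1.57 to 1.88.

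The spread between mice of 1 group was wider for ISGs than for genes in the same range of mean level in every group. It was also wider than for all genes in every group but Notch3+/+. The median within-group SD of log2 CPM over the 44 genes was 0.15 in Notch3+/+, 0.32 in Notch3-/-, 0.38 in WT, and 0.27 in TgNotch3R169C mice. Over all 18555 genes tested it was 0.17, 0.19, 0.20, and 0.19. Over the 11549 genes whose mean log2 CPM lay between those of the lowest and highest members, it was 0.12, 0.13, 0.14, and 0.13. Among the members, 40 of 44 in WT mice and 15 of 44 in Notch3+/+ mice varied more than the median gene. The genes tended to be high in the same animals. Notch3-/- replicate 4 had the highest level of its group for 37 of the 44 genes, TgNotch3R169C replicate 3 for 34, and WT replicates 2 and 3 for 18 each. TgNotch3R169C replicate 6 had the lowest level for 34 genes, and WT replicate 6 for 37.

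**Figure D2:**
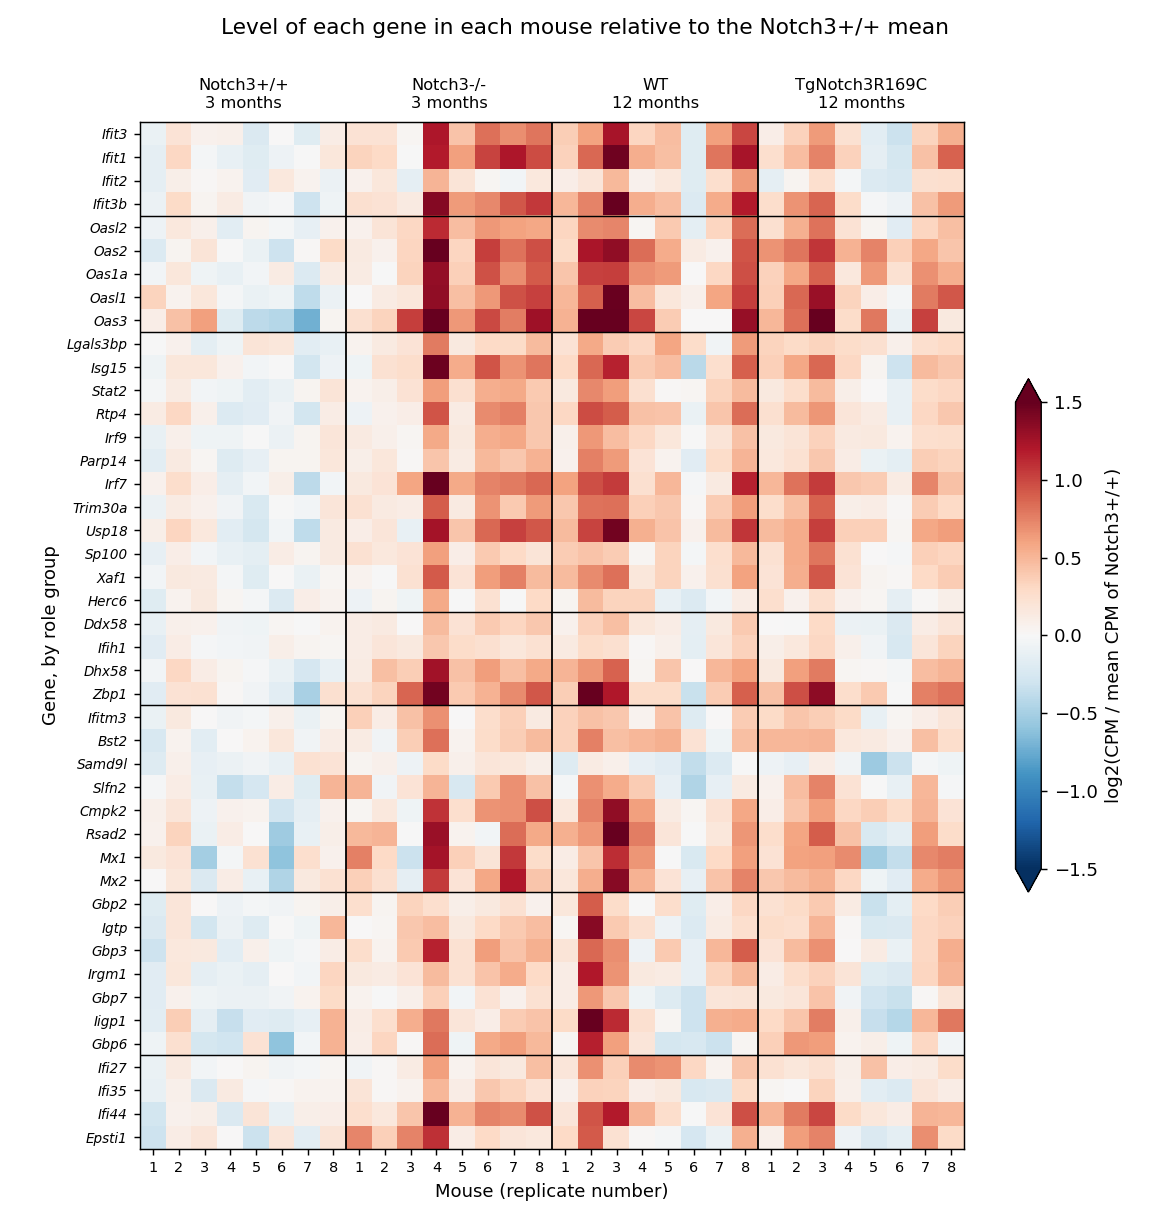
Level of each of the 44 ISGs (rows, by role group, separated by lines) in each of the 32 mice (columns, by group and replicate), as log2 of CPM over the Notch3+/+ mean of that gene. Red columns mark mice in which most of the genes were high, such as Notch3-/- replicate 4 and WT replicates 2 and 3.

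The first comparison was that of Notch3-/- with Notch3+/+ mice at 3 months. All 44 genes were higher in Notch3-/- arteries, with log2 fold changes from 0.11 to 1.12 and a median of 0.43, where the median of all 17714 genes tested was -0.00. At adjusted p under 0.05 (edgeR's quasi-likelihood test), 5 of the 44 were higher and 0 were lower, against 0.198% of all genes tested that were higher. At an unadjusted p under 0.05, 40 were higher, against 3.73% of all genes, and 16 had an adjusted p under 0.1. The 5 genes were Ifih1, Ifit1, Oasl2, Zbp1, and Ifit3b. The 4 genes above that unadjusted p were Gbp7, Ifit2, Samd9l, and Herc6, with log2 fold changes of 0.11 to 0.14. DESeq2, the program the study used, called 26 of the 44, against 0.325% of the 35707 genes it gave a p. By contrast, limma voom called 1, and edgeR with the replicate number as a block called 0. Of all 17714 genes, these called 35 and 28 higher. For 0 of the 44 did the 8 Notch3-/- mice all lie above the 8 Notch3+/+ mice, which 0.0903% of all genes did. For 26 of the 44 all 8 Notch3-/- mice lay above the Notch3+/+ mean, against 1.86% of all genes, and for 10 at least 7 of them lay above every Notch3+/+ mouse, against 0.299%.

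Ifit1, a cytoplasmic protein that binds foreign capped RNA, was measured at 65.5, 71.5, and 91.9 CPM (lowest, median, and highest) in Notch3+/+ and at 73.7, 129.7, and 172 CPM in Notch3-/- mice. The groups overlapped, and 6 of the 8 Notch3-/- mice lay above every control. Its fold change was 1.70 (log2 0.77 ± 0.16 SE, adjusted p = 0.0319). Ifit3b, of the same family, ran from 12.8 through 15.4 to 19.2 CPM in controls and from 17.4 through 25.3 to 41.1 CPM in Notch3-/- mice, of which 5 lay above every control. It was 1.66-fold higher (log2 0.73 ± 0.16, adjusted p = 0.0462). Ifit3 showed a log2 fold change of 0.60 (adjusted p = 0.0654). Ifit2, the remaining member of the family, had one of 0.13 (adjusted p = 0.769).

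Oasl2 belongs to the oligoadenylate synthetase family, some members of which sense double-stranded RNA and activate RNase L. It ran from 98.8 through 111 to 123 CPM in Notch3+/+ and from 115 through 158 to 239 CPM in Notch3-/- mice, 7 of which lay above every control. Oasl2 was 1.45-fold higher (log2 0.53 ± 0.12, adjusted p = 0.0453). The other members of the family had log2 fold changes of 0.79 (Oas2), 0.65 (Oas1a), 0.66 (Oasl1), and 1.12 (Oas3, the largest of the 44), with adjusted p of 0.0902 to 0.142. Oas3 ran from 4.92 through 7.64 to 21.6 CPM in Notch3-/- mice, with the highest value in replicate 4, against 2.51 to 6.37 CPM in controls. With each mouse left out in turn, its log2 fold change was 0.81 to 1.23.

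Among the sensors, Ifih1 encodes MDA5 and Ddx58 encodes RIG-I, which detect viral RNA. Ifih1 changed little but evenly. It ran from 52.0 through 58.6 to 62.9 CPM in Notch3+/+ and from 62.9 through 67.3 to 77.3 CPM in Notch3-/- mice, and 7 of the 8 lay above every control. Its fold change of 1.17 (log2 0.22 ± 0.045, adjusted p = 0.0269) had the smallest p of the 44 genes. Zbp1, a sensor of nucleic acid in the Z form, ran from 7.99 through 11.1 to 13.1 CPM in controls and from 13.1 through 17.1 to 30.4 CPM in Notch3-/- mice, 7 of which lay above every control, and was 1.66-fold higher (log2 0.73 ± 0.16, adjusted p = 0.0457). Ddx58 ran from 74.5 through 80.9 to 85.1 CPM and from 80.9 through 96.9 to 112 CPM, with a log2 fold change of 0.27 (adjusted p = 0.0544). Dhx58, which encodes the related helicase LGP2, had one of 0.58 (adjusted p = 0.0506).

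In the remaining groups 0 genes were called, and their medians lay below those of the Ifit and Oas groups. The 12 regulators had a median log2 fold change of 0.39. The largest was that of Irf7, the transcription factor that amplifies interferon production, at 0.76 (adjusted p = 0.0507), from 31.2 ± 4.03 CPM in Notch3+/+ to 52.9 ± 19.3 CPM in Notch3-/- mice (SD, n = 8). Isg15, a ubiquitin-like protein, and Usp18, the protease that removes it, had values of 0.68 and 0.66. Lgals3bp, a secreted glycoprotein and the most abundant of the regulators, ran from 185 through 202 to 236 CPM and from 213 through 245 to 354 CPM. The 8 direct antiviral effectors had a median of 0.43, with Mx1 and Mx2 at 0.57 and 0.56. Ifitm3 had 0.31, from 191 through 202 to 226 CPM in controls to 206 through 254 to 329.9 CPM. The 7 interferon-inducible GTPases had a median of 0.32. Gbp2, a guanylate-binding protein and the most abundant of them, ran from 93.9 through 106 to 121 CPM and from 109.9 through 122 to 135 CPM, a log2 difference of 0.18. The 4 other induced genes had a median of 0.37, with Ifi27 at 0.21 and Ifi44 at 0.73.

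**Figure D3:**
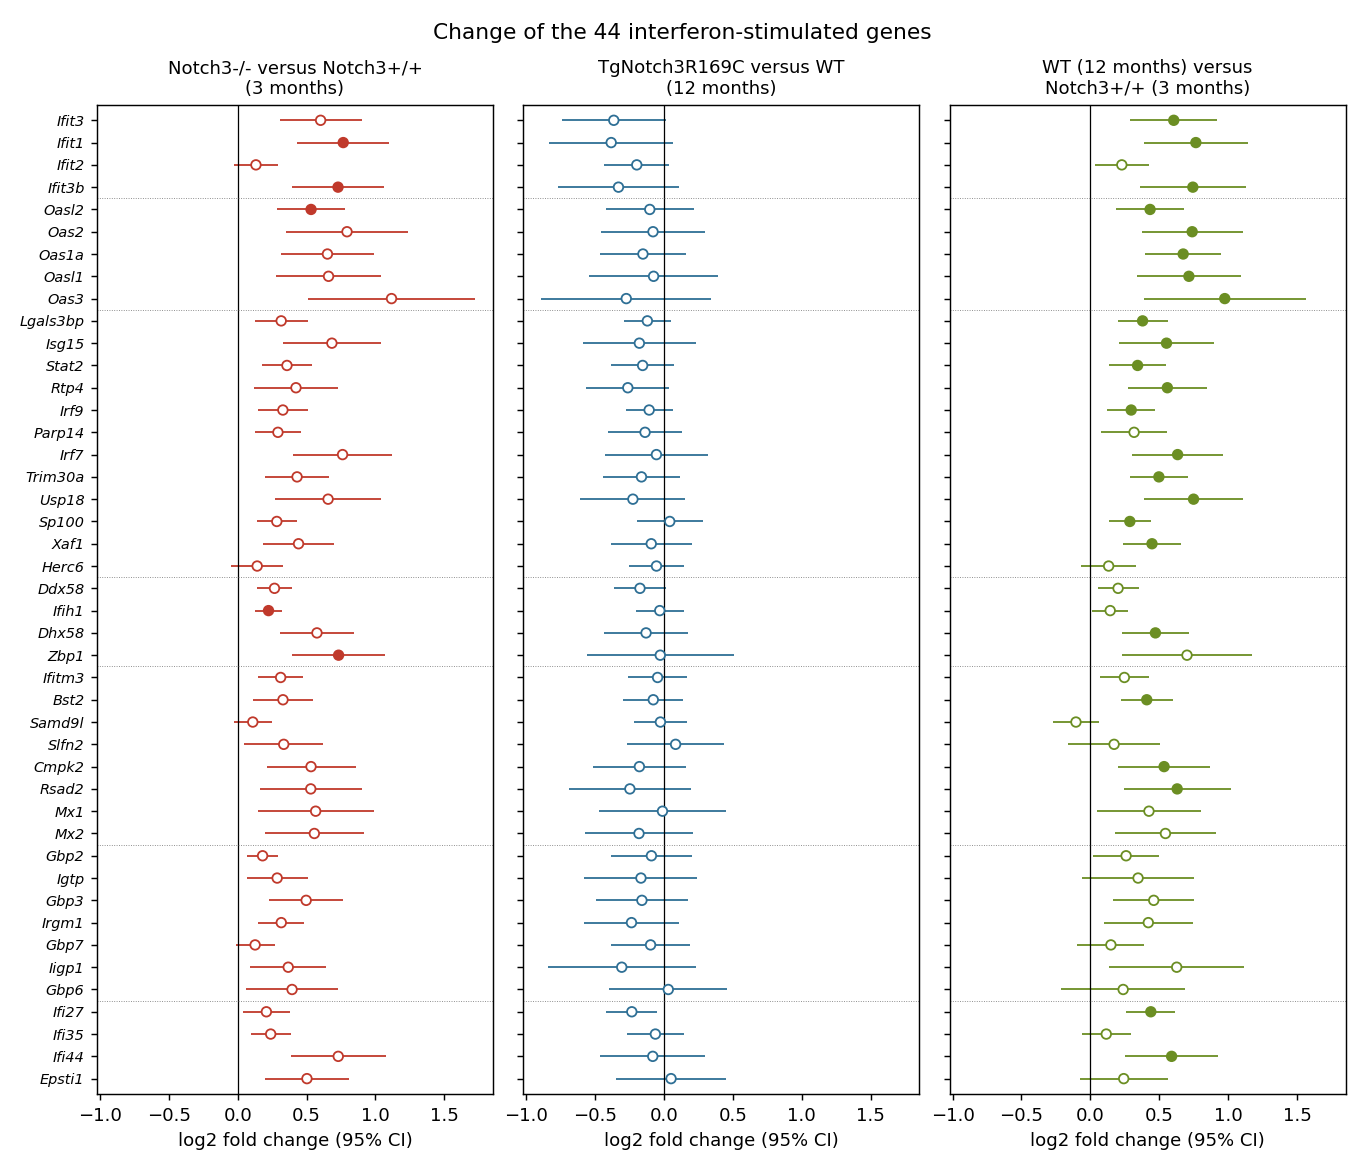
Log2 fold change (x axis) of the 44 ISGs (y axis, by role group) in 3 comparisons, with 95% confidence intervals. Filled points passed an adjusted p of 0.05: 5 genes in Notch3-/- against Notch3+/+, 0 in TgNotch3R169C against WT, and 24 in WT at 12 months against Notch3+/+ at 3 months. The left and right panels share the Notch3+/+ mice.

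The Notch3-/- mice differed among themselves. The median over the 44 genes was 1.38 to 1.88 times the Notch3+/+ mean in replicates 4, 6, 7, and 8 and 1.09 to 1.15 times in replicates 1, 2, 3, and 5. In replicate 4 it was 1.88, with the Oas group at 2.52 times, the Ifit family at 2.29 times, and the GTPases at 1.38 times. Replicate 3 was above every control for 20 of the 44 genes, and replicate 4 for 42. Notch3 mRNA was 13.7 to 18.5 CPM in all 8 animals. Macrophage and microglia markers summed to 1049 to 1413 CPM in Notch3+/+ and 996 to 1591 CPM in Notch3-/- mice, and 0 of the 8 were called in either direction. In replicate 4 they summed to 1385 CPM. Markers of T and natural killer cells summed to 4.45 to 9.996 and 2.74 to 8.66 CPM, with 0 of 4 called. The 4 oligodendrocyte markers had a median log2 fold change of 0.50, with 0 called. Pericyte markers had one of 0.22, with 4 of 4 higher and 1 called. Markers of the choroid plexus (3.07, abundant in Notch3-/- replicate 8) and of red cells (0.42) were also all higher, with 0 called. Of the neutrophil markers 0 of 4 were higher, at a median of -0.15 with 0 called. With the macrophage markers as a covariate the median log2 fold change was 0.43. The decrease of the smooth muscle markers moved with the same contrast. Its part in the result was not tested, nor was that of the oligodendrocyte, pericyte, and red cell markers.

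Within males the 44 genes had a median log2 fold change of 0.39 and within females of 0.44, with 44 of 44 higher in each. With 4 mice a group 0 of the 44 were called in either sex, where 0.0758% of all genes were called higher in each. The difference between the sexes was called for 0 of the 44 (smallest adjusted p = 0.700), with 1 gene, Epsti1, at an unadjusted p under 0.05. The calls of single genes in Notch3-/- arteries depended on single mice. Leaving out each of the 16 mice in turn gave 0 to 13 called genes and kept all 44 higher, with medians of 0.35 to 0.48. Over these fits 21 to 50 of all genes were called higher. Without Notch3-/- replicate 4, the highest animal, 6 genes were called at a median of 0.35. Without Notch3-/- replicate 6 or Notch3+/+ replicate 4 or 5, 0 were called, and without Notch3-/- replicate 1 or 2, 13 and 12 were.

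**Figure D4:**
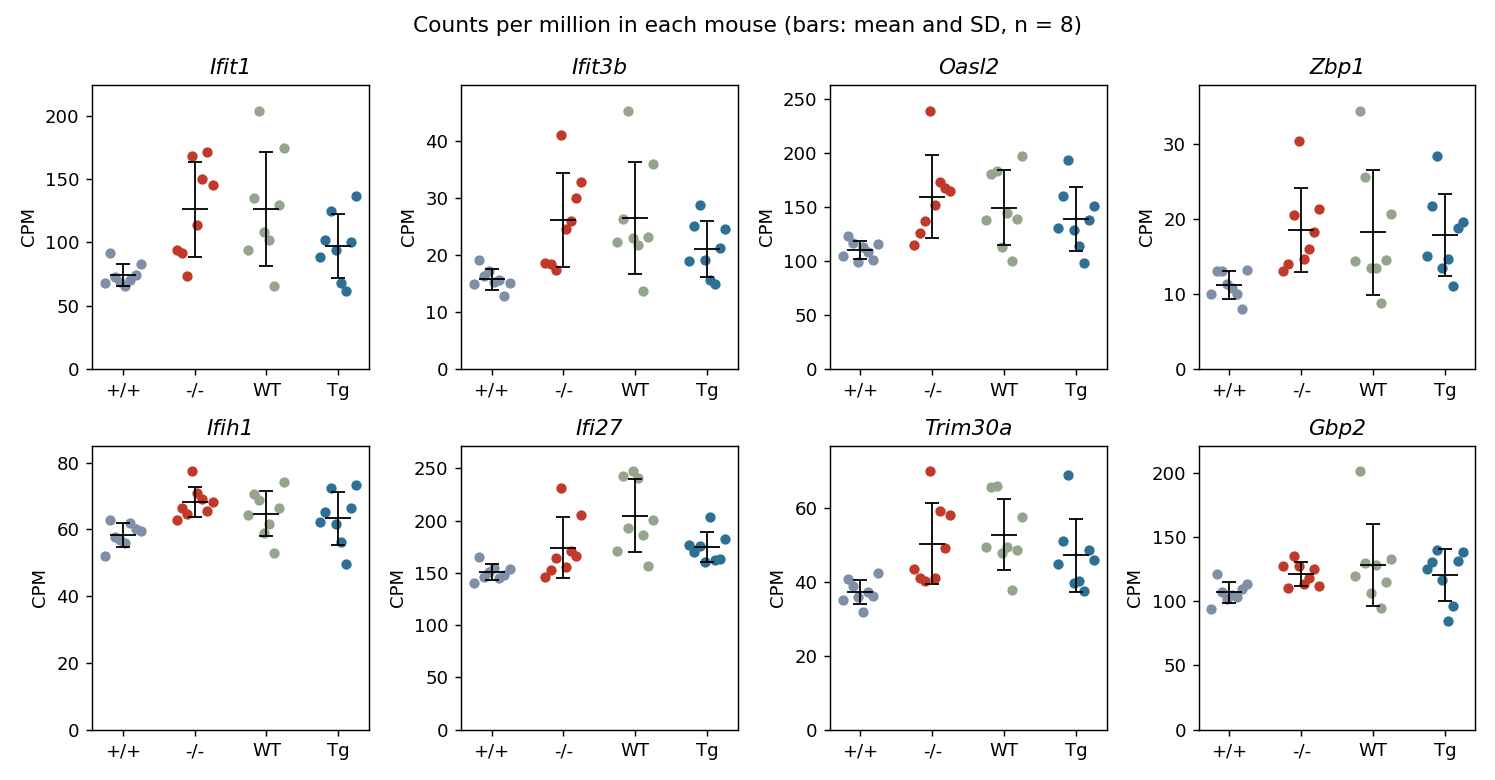
CPM (y axes, from 0) of 8 ISGs in each of the 32 mice, by group: Notch3+/+ (+/+) and Notch3-/- (-/-) at 3 months, WT and TgNotch3R169C (Tg) at 12 months. Points are mice, and bars give the mean and SD (n = 8). In each panel the Notch3+/+ mice lie close together and overlap with every other group.

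In TgNotch3R169C arteries most ISGs stood slightly below their level in WT arteries at 12 months, with 0 past the test. Of the 44 genes, 4 were higher and 40 lower in TgNotch3R169C mice, with log2 fold changes from -0.38 to 0.08 and a median of -0.13, where that of all 17731 genes was -0.01. By edgeR's test 0 of the 44 were called in either direction, against 0.113% of all genes, and 1 had an unadjusted p under 0.05 on the lower side, against 3.27% of all genes. DESeq2 and limma voom also called 0, against 74 of 36600 and 20 of 17731 genes, with 2 and 1 members at an unadjusted p under 0.05. Over the other settings run on both sexes together, 1 to 10 members were at that p in either direction. The most were with the replicate number as a block, and 7 were without WT replicate 6. The share of all genes at that p was taken only for the main fit. Markers of neutrophils and of the choroid plexus were also lower in TgNotch3R169C mice, 4 of 4 each, at medians of -1.03 and -1.12 with 0 called. Of the smooth muscle markers 0 of 6 were higher, at a median of -0.25 with 0 called. Those of astrocytes and neurons were higher, 4 of 4 each, at medians of 0.21 and 0.27 with 0 called. With Ttr as a covariate 2 of the 44 were higher and 42 lower, at a median of -0.16. In that fit 0 were called, against 7 of 17731 genes. Without the libraries rich in choroid plexus 7 were higher and 37 lower, at a median of -0.17. There 0 were called, against 2 of 18097 genes. The part of the other cells named here was not tested. The intervals still allow changes of some size: for Ifit1 the 95% interval of the log2 fold change ran from -0.83 to 0.07.

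The 4 genes with the smallest p were Ifi27, Ifit3, Ddx58, and Rtp4. Ifi27, a small membrane protein, ran from 156 through 197 to 247 CPM in WT and from 161 through 173 to 203 CPM in TgNotch3R169C mice, so that the groups overlapped. Its log2 fold change was -0.23 ± 0.087 (edgeR adjusted p = 0.626). Those of Ifit3, Ddx58, and Rtp4 were -0.36, -0.17, and -0.26, with adjusted p of 0.681 to 0.717. For Ifi27 the highest WT mice, replicates 2, 4, and 5 at 241 to 247 CPM, were rich in choroid plexus transcripts. So were the highest TgNotch3R169C mice, replicates 5 and 8, at 203 and 183 CPM. WT replicate 6, also rich in them, was at 186 CPM. The Ifit family had the lowest median of the role groups, at -0.35, and the other groups had medians of -0.16 to -0.06.

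TgNotch3R169C replicate 3 stood highest, with a median over the 44 genes of 1.57 times the Notch3+/+ mean, and replicates 5 and 6 stood lowest, at 1.01 and 0.927. Replicate 3 also had the lowest Notch3 level of its group, at 108 CPM against 168 to 219 CPM in the other 7. Without it, all 44 genes were lower in TgNotch3R169C mice at a median of -0.20, still with 0 called. Without WT replicate 3, 11 were higher and 33 lower at a median of -0.06.

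The changes in the 2 mutants were then set against each other in a single fit of the 4 groups. The log2 fold change in TgNotch3R169C mice was lower than that in Notch3-/- mice for all 44 genes, by a median of -0.56 and with a range from -1.39 to -0.13. At adjusted p under 0.05, 0 of the 44 were called by edgeR's test, against 0.0862% of all genes that were lower in TgNotch3R169C, and 34 had an unadjusted p under 0.05, against 3.78%. The 4 with the smallest p were Ifit1 (-1.15 ± 0.27, adjusted p = 0.0533), Ifit3 (-0.96 ± 0.23, adjusted p = 0.0608), Ddx58 (-0.44 ± 0.11, adjusted p = 0.0608), and Ifit3b (-1.06 ± 0.27, adjusted p = 0.0779). By role group the median difference was -1.01 for the Ifit family, -0.80 for the Oas genes, -0.57 for the sensors, -0.52 for the regulators, and -0.49 to -0.44 for the others. DESeq2 called the 4 named genes, against 152 of 38613 genes called in either direction. By limma voom 0 were called, against 68 of 18555 genes. Each mutant was compared with its own littermates, and the mutants also differ in age and line, which cannot be told apart from the mutation here.

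The ISGs also differed between the control groups. WT mice at 12 months were set against Notch3+/+ mice at 3 months, and since these are littermates of different lines, age, line, and cohort cannot be told apart. This comparison shares its Notch3+/+ mice with the first and its WT mice with the second. In WT arteries 43 of the 44 genes were higher and 1, Samd9l, was lower, with log2 fold changes from -0.10 to 0.98 and a median of 0.44, where that of all 17643 genes was 0.00. At adjusted p under 0.05, 24 of the 44 were higher, against 3.87% of all genes, and 36 at an unadjusted p, against 12.7%. For 0 of the 44 did the groups not overlap, against 0.391% of all genes. The called genes were 5 of 5 oligoadenylate synthetases, 3 of 4 Ifit genes, 10 of 12 regulators, 3 of 8 direct effectors, 2 of 4 other genes, 1 of 4 sensors, and 0 of 7 GTPases. The 20 genes that were not called were Ifit2, Ifih1, Ddx58, Zbp1, Herc6, Parp14, Mx1, Mx2, Ifitm3, Samd9l, Slfn2, Ifi35, Epsti1, and the 7 GTPases, which had a median log2 fold change of 0.35.

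Ifi27 had the smallest p. It was 140.2, 149, and 165 CPM (lowest, median, and highest) in Notch3+/+ and 156, 197, and 247 CPM in WT mice, 7 of which lay above every Notch3+/+ mouse. Its fold change was 1.36 (log2 0.44 ± 0.084, adjusted p = 0.00592). Oas1a followed, at 7.44, 8.33, and 9.63 CPM against 8.61, 13.6, and 17.6 CPM, with a fold change of 1.60 (log2 0.67 ± 0.13, adjusted p = 0.00625). Trim30a, a tripartite motif protein, was 31.8, 36.7, and 42.3 CPM against 37.9, 49.4, and 65.9 CPM, a fold change of 1.41 (log2 0.50 ± 0.099, adjusted p = 0.00680). In all 3 genes 7 of the 8 WT mice lay above every Notch3+/+ mouse. For Oas1a and Trim30a the lowest WT mouse was replicate 6.

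Bst2 (tetherin), which holds budding virus at the cell surface, ran from 51.4 through 62.1 to 68.4 CPM and from 57.9 through 82.7 to 102 CPM, and was 1.33-fold higher in WT mice (adjusted p = 0.0123). Xaf1, a factor tied to cell death, ran from 20.7 through 23.4 to 26.1 CPM and from 24.7 through 31.2 to 41.7 CPM (1.36-fold, adjusted p = 0.0126). Lgals3bp was 1.30-fold higher (adjusted p = 0.0143), with 200, 262, and 321 CPM in WT mice. Usp18, which restrains signaling at the receptor, ran from 16.6 through 21.98 to 27.1 CPM and from 22.7 through 30.6 to 59.1 CPM (1.68-fold, adjusted p = 0.0144). Ifit1 was 1.70-fold higher (adjusted p = 0.0163), Oas2 1.67-fold (0.0168), Rtp4 1.47-fold (0.0190), Dhx58 1.39-fold (0.0191), and Ifit3b 1.68-fold (0.0198). The genes called in both this and the first comparison were Ifit1, Ifit3b, and Oasl2.

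The choroid plexus moved with this comparison: its 4 markers summed to 198 to 543 CPM in Notch3+/+ and 149 to 24763 CPM in WT mice, with 3 of 4 called higher. Markers of other cells also stood higher in WT mice. The 4 neutrophil markers had a median log2 fold change of 1.04 with 0 called, those of T and natural killer cells 0.58 with 0 called, those of oligodendrocytes 0.70 with 1 called, and those of pericytes 0.25 with 2 called. The part of these cells in the result was not tested. With Ttr as a covariate 13 of the 44 genes were called at a median of 0.56, and the share of all genes called higher was 0.708%. In that fit Ifi27, Bst2, and Lgals3bp were no longer called, at log2 0.26, 0.31, and 0.32, nor were Oas2 and Rtp4, at 0.74 and 0.66. Without the 7 libraries rich in choroid plexus 18 genes were called at a median of 0.56, against 1.08% of all genes. Within males the median was 0.60, with 1 gene called (Bst2) where 0.0866% of all genes were called higher, and within females 0.32, with 0 called where 1.35% were. The difference between the sexes was called for 0 of the 44 (smallest adjusted p = 0.372). Leaving out each mouse in turn gave 15 to 30 called genes, with 15 genes called every time. Over these fits 416 to 802 of all genes were called higher. The count of members fell most without Notch3+/+ replicate 4, to 15, where 494 of 17821 genes were called higher. It was 30 without WT replicate 6, where 479 of 17704 were.

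The Ifit genes and the GTPases did not stand equally high in every mouse. In WT replicate 2 the GTPases stood at 2.25 times the Notch3+/+ mean and the Ifit family at 1.59 times. Its Igtp level was 102 CPM, against 34.3 to 52.1 CPM in the other WT mice, and its Gbp2 level 201 CPM against at most 133 CPM. In WT replicate 3 the order was the opposite, with the Ifit family at 2.54 times and the GTPases at 1.53 times. The ratio of the Ifit to the GTPase value was 0.707 in WT replicate 2 and reached 1.72 in WT replicate 8. It was above 1 in 7 of 8 WT, 7 of 8 Notch3-/-, 6 of 8 TgNotch3R169C, and 5 of 8 Notch3+/+ mice. WT replicate 2 also had the highest level of its group for Cxcl9, a chemokine that draws T cells and is induced by interferon gamma, at 22.3 CPM against 0.508 to 2.34 CPM in the other WT mice. Cxcl9 was also high in Notch3+/+ replicate 8 (13.9 CPM), TgNotch3R169C replicate 7 (9.25), and Notch3-/- replicate 3 (8.27). In Notch3+/+ replicate 8 the Ifit value, 1.017, was below the GTPase value, 1.251. The same order held in Notch3-/- replicate 3, at 1.005 and 1.264. In TgNotch3R169C replicate 7 the Ifit value, 1.31, was above the GTPase value, 1.24. The T and natural killer cell markers of WT replicate 2 summed to 20.7 CPM against 5.35 to 8.92 CPM. This library was also rich in choroid plexus transcripts, and the part of either in its GTPase level was not tested.

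**Figure D5:**
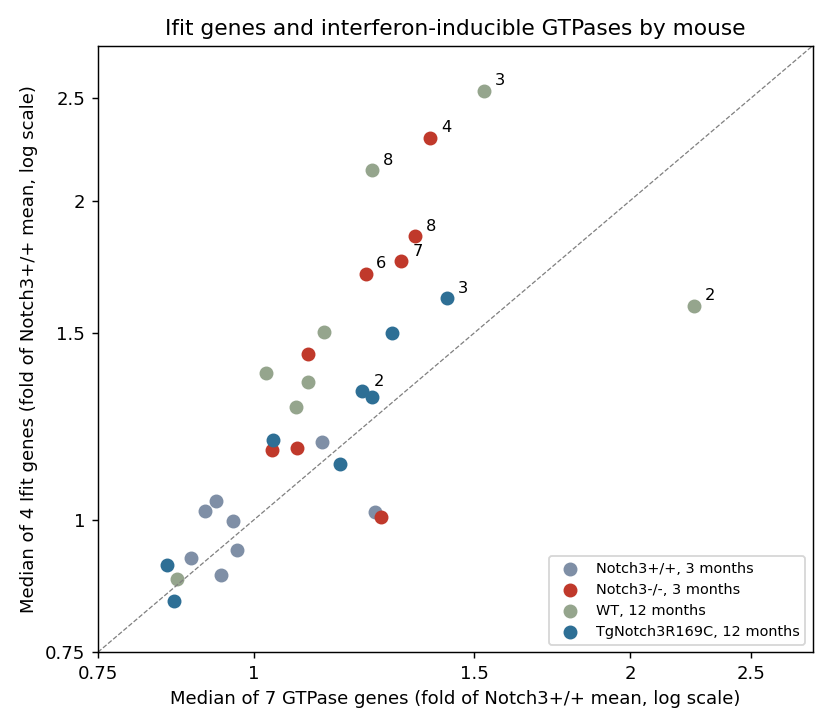
Median fold of the 4 Ifit genes (y axis) against that of the 7 GTPases (x axis) in each of the 32 mice, both relative to the Notch3+/+ mean on log scales. Numbers are the replicates of the mice with the highest medians over the 44 ISGs, and the dashed line marks equal folds. WT replicate 2 lies far below the line, at 2.25 and 1.59, and WT replicate 3 far above it, at 1.53 and 2.54.

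Other genes of the pathway were counted from whole lists of their roles, which were likewise drawn up with earlier results known. Of 50 further interferon-induced genes, 48 were higher in Notch3-/- mice (median log2 fold change 0.29), 14 in TgNotch3R169C mice (median -0.05), and 48 in WT against Notch3+/+ mice (median 0.24). In Notch3-/- mice 3 of the 50 were called, Tgtp1, Gbp10, and Slfn8, against 0.198% of all genes that were higher. In TgNotch3R169C mice 0 were called, against 0.113% of all genes. In the comparison of the control groups 7 were called higher, against 3.87% of all genes, of which Oas1g (log2 0.83, adjusted p = 0.00206), Oas1b (0.58, adjusted p = 0.00624), and Tor3a (0.25, adjusted p = 0.00961) had the smallest p. Tgtp1, an interferon-inducible GTPase, had log2 fold changes of 0.79 in Notch3-/- mice (adjusted p = 0.0319) and 0.95 in WT against Notch3+/+ mice (adjusted p = 0.0449).

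Upstream in the pathway, of 9 receptor and kinase genes, 0 were called in either mutant, with medians of -0.00 and -0.03. In the comparison of the control groups 1 was called, Ifngr1, which encodes a chain of the interferon gamma receptor and was lower in WT mice (log2 -0.25 ± 0.046, adjusted p = 0.00403). Of 9 transcription factor genes, 0 were called in the 3 comparisons, with medians of 0.07 in Notch3-/-, -0.02 in TgNotch3R169C, and 0.03 in WT against Notch3+/+ mice. Of 11 genes that sense nucleic acid upstream of interferon, Tlr3 was called in the comparison of the control groups (log2 0.19, adjusted p = 0.0326), and of 6 negative regulators Adar, which edits double-stranded RNA, was called there (log2 0.22, adjusted p = 0.0272), with 0 called in either mutant. The 7 genes of class I antigen processing were all higher in Notch3-/- mice, at a median of 0.16 with 0 called, and most of them lie in the major histocompatibility complex, on the chromosome that also carries Notch3.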

How the data were processed

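RNA sequencing counts of brain arteries from 32 mice were used. The authors deposited raw whole-number read counts per Ensembl gene. The submitters' processing notes name bcl2fastq 2.20.0.422, cutadapt 1.10, Bowtie2 2.2.8, STAR 2.5.3a, HTSeq 0.6.1p1, and mm39, and the strand setting of the counting is not given in the sources used here.

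Genes were filtered with filterByExpr, scaled by TMM, and tested with edgeR 4.0.16 (quasi-likelihood, 2-sided, Benjamini-Hochberg over all genes tested, threshold 0.05) in R 4.3.3. DESeq2 1.42.0, which the study used, and limma voom (limma 3.58.1) were alternatives, with another scaling, no filter, covariates, a replicate block, and each mouse left out. CPM are on 1 TMM scale over all libraries. The fits were tested on simulated data. Shared sequence was found with blastn 2.17.0 on GENCODE vM21 transcripts (GRCm38). Replicate libraries of a group differed by at least 10.9 times the counting noise (chi-square per gene), so that none was a duplicate.

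The members and all lists were chosen with earlier results of these data known. Statistics in full were given for the members called in a comparison (up to 12, smallest p first, or the 4 with the smallest p where fewer than 4 were called). Values by mouse were given for the members called in any comparison (up to 12) and the most abundant member of each role group, other values being named after they were seen. Non-members were limited to Notch3 and pathway genes called (up to 5), with Cxcl9 named after its values were seen. The sex of the mice and the libraries rich in choroid plexus (Ttr above 1000 CPM) were read from the data.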

Additional observations from a re-analysis of the deposited data

Results flagged for a closer look

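For each of the 44 genes and for their median, 180 groups of 8 mice were examined for a mouse far from the other 7, measured as its gap to the nearest mouse over the range of the group against Dixon's 95% critical value. Of these, 16 held such a mouse, where chance gives about 9 and where the genes are not independent of each other.

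Notch3-/- replicate 4 was the high mouse in 8 of the 16, for Ifit2 (gap 0.553 of the range), Irf7 (0.644), Oas2 (0.579), Oas3 (0.691), Oasl2 (0.532), Ifi44 (0.545), Dhx58 (0.655), and Gbp3 (0.574). Irf7 was 96.4 CPM in this mouse and 56.5 CPM in the next.

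WT replicate 3 was the high mouse for Mx2 (0.541), Rsad2 (0.621), and Cmpk2 (0.561), and WT replicate 2 for Gbp2 (0.638) and Igtp (0.738). TgNotch3R169C replicate 3 was high for Trim30a (0.571), and TgNotch3R169C replicate 6 was low for Lgals3bp (0.641), at 217 CPM against 244 CPM in the next mouse. Slfn2 was high in Notch3+/+ replicate 8 (0.531).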

How the results depend on the processing

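The median log2 fold change of the 44 genes kept its sign under every alternative run. It was 0.35 to 0.48 in Notch3-/- mice, -0.20 to -0.06 in TgNotch3R169C mice, and 0.32 to 0.60 in WT against Notch3+/+ mice, and the difference between the mutants was -0.63 to -0.47. The numbers of called genes were less stable, and the cause was not tested. In Notch3-/- mice, 5 genes were called in the main comparison, 26 by DESeq2, 1 by limma voom, and 3 with macrophage markers as a covariate. Of all genes, these fits called higher 35 of 17714, 116 of 35707, 35 of 17714, and 31 of 17714 in turn. Among alternatives chosen after seeing the data, the count was 2 with sex as a term, 0 within males, 0 within females, and 1 without the libraries rich in choroid plexus, which here is Notch3-/- replicate 8. These fits called higher 29 of 17714, 14 of 18475, 14 of 18475, and 26 of 17849 genes in turn. Leaving out 1 mouse gave 0 to 13: besides the mice named above, the count was 1 without Notch3+/+ replicate 1, 3, 6, or 7 or Notch3-/- replicate 7 or 8. Over the fits without 1 mouse, 21 to 50 of all genes were called higher. In WT against Notch3+/+ mice, 24 genes were called, against 13 with Ttr as a covariate, 1 within males, 0 within females, and 15 to 30 without 1 mouse, the highest without WT replicate 6. Of all genes, 3.87% were called higher in the main fit, 0.708% with Ttr, 0.0866% within males, and 1.35% within females. Without 1 mouse, 416 to 802 of all genes were called higher, with 479 of 17704 without WT replicate 6. For the difference between the mutants, 0 became 4 by DESeq2, 1 with macrophage markers, 2 without the libraries rich in choroid plexus, and 0 to 5 without 1 mouse (5 without TgNotch3R169C replicate 3, 4 without WT replicate 6, 3 without Notch3-/- replicate 1 or 3, 2 without Notch3-/- replicate 2, and 1 without Notch3+/+ replicate 2, TgNotch3R169C replicate 8, or WT replicate 1). Of all genes, DESeq2 called 152 of 38613 in either direction. The fit with macrophage markers called 86 of 18555, and that without the libraries rich in choroid plexus 39 of 19042. Without 1 mouse, 53 to 94 of all genes were called. In TgNotch3R169C mice 0 were called under all 28 alternatives. Fits of both sexes together called 2 to 74 of all genes there. Same-numbered mice share a number and, as read from the data, their sex, and nothing says that they are pairs: 4 of 8, 4 of 8, and 3 of 8 pairs had deviations that correlated above 0.1. With the replicate number as a block, the counts were 0 in Notch3-/-, 0 in TgNotch3R169C, 20 in WT against Notch3+/+ mice, and 1 for the difference. Of all genes, 28 of 17714 were called higher in Notch3-/- and 329 of 17643 in WT against Notch3+/+ mice. In either direction, 6 of 17731 were called in TgNotch3R169C mice and 63 of 18555 for the difference.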
